A study of Mus musculus with 80 samples.

Results

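The liver makes most of the circulating proteins of inflammation, complement and blood clotting, and 54 of their genes were followed here through RNA-seq of mouse liver. They were chosen by symbol as rows of both expected count tables, which hold 18877 genes for the DEHP animals and 17672 genes for the DCA animals, and all 54 were found in both. The members fall into 20 acute phase genes, 14 complement genes and 20 coagulation genes. The rule names symbols and uses no measured value, but the members were chosen with earlier results of these data known. Their shares beside those of all genes are therefore a description only. Male B6C3F1 mice, 4 weeks old, received di(2-ethylhexyl) phthalate (DEHP, a plasticizer that activates the nuclear receptor PPAR alpha in rodent liver) in feed for 7 days at 1500, 3000 or 6000 ppm, or feed with 0 ppm, with 4 mice per dose (livers collected in 2013). Mice of the same strain, sex and age received dichloroacetic acid (DCA, which forms when water is disinfected with chlorine) in drinking water at 1, 2 or 3.5 g/L, or water with 0 g/L, with 6 mice per dose (livers collected in 1994); the length of that exposure is not given in the sources used here. Every liver was sequenced from both formalin-fixed, paraffin-embedded (FFPE) blocks of specific lobes and frozen pieces of mixed lobes, as 1 library each, which makes 80 libraries. The labels name no transgene or deletion.

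Acute phase proteins are secreted by hepatocytes when interleukin 6, interleukin 1 and tumor necrosis factor reach the liver, and in mice serum amyloid A and serum amyloid P are the ones with the widest range, while C-reactive protein, the clinical marker in humans, changes little. Complement is a cascade of plasma proteases that ends in a pore of C5b, C6, C7, C8 and C9 in the target membrane. Coagulation factors and their inhibitors are also hepatocyte products, transcribed at steady levels under hepatocyte factors such as HNF4A and C/EBP proteins.

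The bases before the gene start are shown for members that carry the results described below: Saa1 and Saa2 as the most variable genes, Fgb as an abundant fibrinogen chain, C9 as the complement gene with the largest fall at the top DCA dose, C8b as the next complement gene, and F11 as the coagulation gene with the largest fall at that dose. Each is the 250 bases upstream of the RefSeq start on GRCm38.p6 (the mm10 assembly), with capitals marking matches, on either strand, to a C/EBP motif (TTGCNNAA) or a STAT motif (TTCNNNGAA, the same on both strands). C8b holds a match to neither.
Saa1 (chr7:46742981-46743230, minus strand): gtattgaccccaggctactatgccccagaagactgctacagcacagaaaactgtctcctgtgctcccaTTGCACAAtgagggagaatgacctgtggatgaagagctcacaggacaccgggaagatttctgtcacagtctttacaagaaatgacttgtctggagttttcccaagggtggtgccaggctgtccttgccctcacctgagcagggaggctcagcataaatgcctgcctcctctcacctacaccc
Saa2 (chr7:46751583-46751832, plus strand): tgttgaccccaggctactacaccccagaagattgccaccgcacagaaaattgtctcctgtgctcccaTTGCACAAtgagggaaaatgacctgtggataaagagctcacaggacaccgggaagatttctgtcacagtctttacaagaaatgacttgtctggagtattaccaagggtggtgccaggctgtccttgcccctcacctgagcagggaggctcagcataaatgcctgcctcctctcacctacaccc
Fgb (chr3:83049864-83050113, minus strand): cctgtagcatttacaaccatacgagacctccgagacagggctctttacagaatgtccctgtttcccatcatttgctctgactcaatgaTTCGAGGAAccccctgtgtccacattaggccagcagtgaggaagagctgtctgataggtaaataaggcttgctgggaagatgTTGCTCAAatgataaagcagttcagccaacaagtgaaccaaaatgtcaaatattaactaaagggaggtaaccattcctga
C9 (chr15:6445096-6445345, plus strand): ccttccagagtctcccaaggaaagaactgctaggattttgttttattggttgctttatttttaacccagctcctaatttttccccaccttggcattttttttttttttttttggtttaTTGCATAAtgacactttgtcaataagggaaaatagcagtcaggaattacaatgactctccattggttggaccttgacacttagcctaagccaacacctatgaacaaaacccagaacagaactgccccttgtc
C8b (chr4:104766067-104766316, plus strand): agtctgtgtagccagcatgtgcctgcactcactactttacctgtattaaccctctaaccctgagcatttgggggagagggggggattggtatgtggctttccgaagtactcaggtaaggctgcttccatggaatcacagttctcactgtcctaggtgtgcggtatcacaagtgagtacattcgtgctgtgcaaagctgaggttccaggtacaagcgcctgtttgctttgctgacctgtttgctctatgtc
F11 (chr8:45262032-45262281, minus strand): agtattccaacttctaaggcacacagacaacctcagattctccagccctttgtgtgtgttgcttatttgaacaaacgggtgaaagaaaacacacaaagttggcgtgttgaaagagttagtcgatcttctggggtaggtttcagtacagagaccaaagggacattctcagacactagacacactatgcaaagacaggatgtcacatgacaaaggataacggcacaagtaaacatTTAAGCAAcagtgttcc

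Of the 54 members, 43 had such a window in the RefSeq table, and the C/EBP letters were in 16 of them (37.2%), against 9.56% of 32851 windows of the same length over all genes. They were in 10 of 17 acute phase windows, 2 of 10 complement windows and 4 of 16 coagulation windows. The STAT letters were in 8 of the 43 windows (18.6%), against 7.02% of all windows. The letters GGNNTTTCC of an NF-kB site were in 1 window (2.33%, against 4.93%), and the letters AGGNCANAG, part of a direct repeat bound by HNF4A and PPAR alpha, in 3 (6.98%, against 7.68%). An HNF1 core, TTAATNATT, was in 3 windows (6.98%, against 1.4%). Each member has 1 window here, while the share over all genes counts every window. The motifs can overlap one another, and a match is a description of the letters only.

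The libraries were deep in 3 of the 4 sets. Totals ran from 16582951 to 29550616 counts in DEHP frozen libraries, from 11673034 to 18866106 in DEHP FFPE and from 3067666 to 16890024 in DCA frozen, where animals 73, 74 and 75 (2 g/L, lane L3) had the 3 lowest totals. In DCA FFPE they ran from 109292 to 8434613, with a median of 56.5% of counts in the ribosomal RNA precursor Rn45s and a median of 6805 counts over all 54 members. Frozen DCA controls were all in lane L5 and frozen 3.5 g/L libraries all in lane L4, which cannot be told apart from the dose. Frozen libraries 53 and 54 (1 g/L) came from run V18431, and all other frozen DCA libraries from run W48315. Frozen DEHP controls came from runs H36399 and H36451, which only 3 treated frozen libraries shared (35A, 72B and 8C). In DCA FFPE the run of the 6 controls also held 3 libraries at 1 g/L, and another run held the rest. No pair of replicates agreed within sampling noise, the closest being frozen libraries 74 and 75 (chi-square over its degrees of freedom 5.63). All 8 hepatocyte markers (among them Alb, Apoa1 and Ttr) were detected in every group. Frozen and FFPE libraries of animals 35A and 67C (3000 ppm) did not correlate best with each other, so values that pair the preparations are also given without them. In these bulk samples, fewer cells of a type and less RNA per cell cannot be told apart.

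Fibrinogen chains, hemopexin and haptoglobin led the members by level. In frozen DEHP controls Fgb averaged 3720 ± 912 FPKM, Fgg 3720 ± 857, Hpx 2980 ± 1570, Fga 2770 ± 594 and Hp 2390 ± 1480 (mean and SD, n = 4), and these neighbours in the order lay within 1 SD of each other. Among complement genes C3, the central component, was highest at 1390 ± 407 FPKM, and among coagulation genes vitronectin (Vtn, 984 ± 115) and kininogen (Kng1, 914 ± 98.7). The lowest members there were F7 (27.3 ± 3.21), which encodes factor VII, and Pros1 (23 ± 3.93), which encodes protein S. In frozen DCA controls the first 5 were the same genes, from Fgb at 3500 ± 971 FPKM to Hp at 2250 ± 1390 (n = 6), and Pros1 was again the lowest, at 23.2 ± 3.79 FPKM. For Saa1, Saa2, Saa3, Orm2 and Lcn2 the SD exceeded the mean in both control groups, as in Saa1 with 1630 ± 2630 FPKM in DEHP controls and 486 ± 871 FPKM in DCA controls.

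The classes differed in how much animals of one group differed. The within-group SD of log2 CPM (counts scaled to library size by TMM, with 0.5 CPM added) had a median of 0.55 over acute phase genes, 0.26 over complement genes and 0.18 over coagulation genes in DEHP frozen liver, beside 0.24 over all genes tested. In DCA frozen liver these medians were 0.38, 0.19 and 0.12, beside 0.20 over all genes tested. Serum amyloid genes Saa1, Saa2 and Saa3, Orm2 (an orosomucoid) and Lcn2 (lipocalin 2, an iron-siderophore binding protein) stood at 2.00 to 2.86 in DEHP frozen and at 1.19 to 1.91 in DCA frozen. The highest frozen DEHP control had 122 times the Saa2 CPM of the lowest, and the highest frozen DCA control 117 times. The next member, Saa4, stood at 0.71 and 0.58, and its controls spanned 3.11-fold and 2.89-fold.

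In frozen liver of DEHP animals, members fell at every dose and none rose. A call is an adjusted p under 0.05 from edgeR's quasi-likelihood test (Benjamini-Hochberg over all genes tested, two-sided). At 1500 ppm 21 members were called lower (8 acute phase, 7 complement, 6 coagulation), when 2.14% of 13802 genes tested were called lower, and 0 members were called higher, when 4.34% of genes were. At 3000 ppm 43 were called lower (17, 11 and 15), when 6.48% of genes were, and 0 higher, when 8.17% were. At 6000 ppm 28 were called lower (7, 9 and 12), when 4.72% of genes were, and 0 higher, when 7.05% were. The median log2 fold change over all members was -0.79 at 3000 ppm and -0.61 at 6000 ppm, beside -0.03 over all genes tested at both doses. By class the medians at 6000 ppm were -0.77 (acute phase), -0.65 (complement) and -0.47 (coagulation). Comparing 6000 with 1500 ppm directly, edgeR called 0 members in either direction, when 0% of genes were called, and DESeq2 called 0. At an unadjusted p under 0.05 from edgeR were 6 members (5 lower and 1 higher) and 835 of all 13802 genes. No member was higher than controls at an unadjusted p under 0.05 at any dose, and DESeq2 also called 0 higher. Summed hepatocyte markers (8 genes, 3 called lower) were 61200 to 73400 CPM at 6000 ppm, against 80700 to 95300 CPM in controls. Summed lymphocyte markers (10 genes, 4 of them tested and 1 called lower) were 2.67 to 4.97 CPM at 6000 ppm, against 6.21 to 9.56 CPM in controls. Their part in the falls was not tested. Single libraries moved these counts: at 1500 ppm 6 members were called without control 75A, 8 without 60A, 9 without 72B and 13 without 45C, 63A or 40A, and at 6000 ppm 18 without 75A, 18 without 44A and 17 without 8C. With the sequencing run as a term 5, 22 and 7 were called by rising dose.

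**Figure D1:**
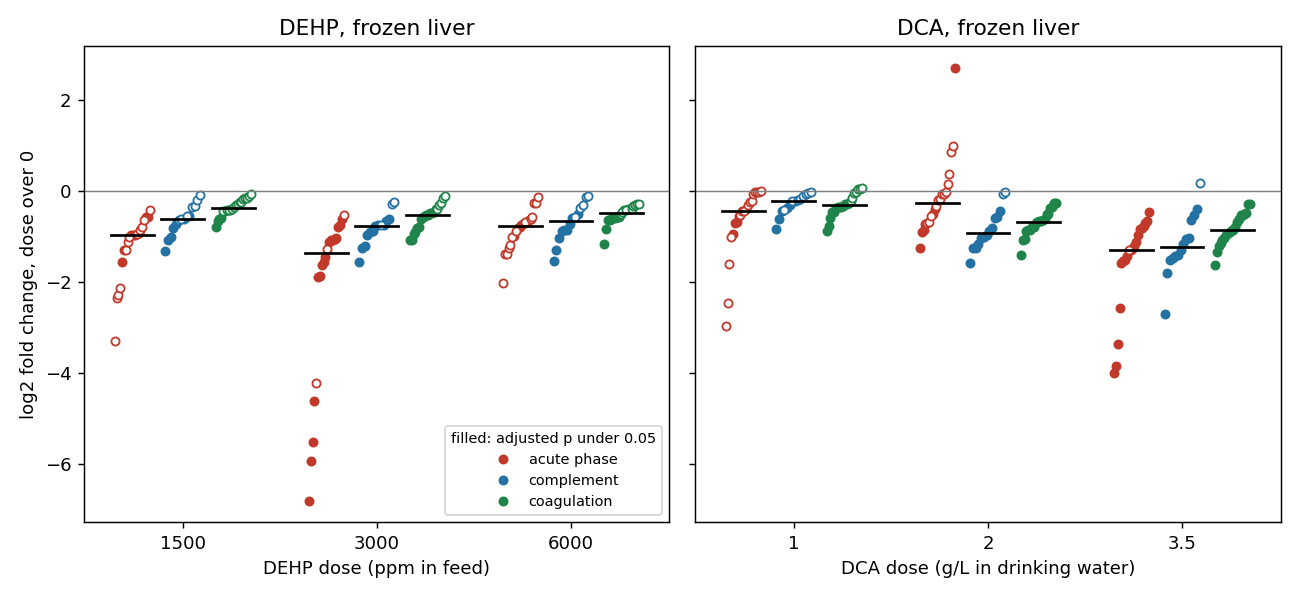
Log2 fold change (dose over 0) of each of the 54 members in frozen liver by DEHP dose in ppm and DCA dose in g/L, by class, with the black bar at the class median and filled points at an adjusted p under 0.05. DEHP points lie below 0 at every dose, and DCA medians at 3.5 g/L are -1.28 (acute phase), -1.22 (complement) and -0.84 (coagulation).

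Inducible acute phase genes varied widely between animals of 1 dose. Animals are given in the order 32A, 45C, 63A and 75A (0 ppm), 3A, 40A, 60A and 72B (1500 ppm), 35A, 67C, 71A and 9A (3000 ppm) and 29B, 44A, 64C and 8C (6000 ppm). Saa2 had 26.5, 257, 83.5 and 3235 CPM in the DEHP controls, 681, 10.4, 8.55 and 6.97 at 1500 ppm, 8.62, 8.91, 9.96 and 4.85 at 3000 ppm and 757, 549.7, 71.8 and 2.13 at 6000 ppm. Control 75A and animal 3A were far above the rest of their groups, all 4 animals at 3000 ppm lay below every control, and at 6000 ppm animals 29B and 44A were high while 8C was the lowest library of all. The log2 fold change of Saa2 was -6.80 ± 1.98 (SE) at 3000 ppm (adjusted p = 0.029) and -1.38 ± 1.55 at 6000 ppm (adjusted p = 0.64). Saa1, its neighbour on chromosome 7, shares most of its sequence, so that reads could be split between the pair. It had 53.7, 335, 161 and 3362 CPM in controls, 754, 21.2, 13.7 and 18.1 at 1500 ppm, 14.5, 22.1, 18.6 and 9.16 at 3000 ppm and 812, 522, 170.4 and 4.16 at 6000 ppm. Its change was -5.92 ± 1.68 at 3000 ppm (adjusted p = 0.0259). Without control 75A the 3000 ppm changes were -3.91 for Saa2 and -3.49 for Saa1, with edgeR adjusted p of 0.128 and 0.115. Both calls were also lost without any 1 of the 4 animals at 3000 ppm and with the sequencing run as a term (edgeR adjusted p = 0.0738 for Saa2 and 0.0689 for Saa1, from values of -8.08 and -7.15).

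Lcn2, Orm1 and Hp, also inducible, were again high in 75A and 3A. Lcn2 had 1.72, 25.4, 35.2 and 427 CPM in the DEHP controls, 43.4, 1.76, 2.79 and 1.90 at 1500 ppm, 2.64, 2.79, 3.54 and 1.60 at 3000 ppm and 84.5, 96.0, 21.9 and 1.63 at 6000 ppm. Its change was -5.52 ± 1.53 at 3000 ppm (edgeR adjusted p = 0.0235), and -2.96 without 75A (adjusted p = 0.135). The call was also lost without 67C, 71A or 9A (adjusted p of 0.0682, 0.0533 and 0.07) and with the run as a term (-6.73, adjusted p = 0.0602). Orm1, an orosomucoid that carries drugs and hormones in plasma, had 396, 534, 679.7 and 1861 CPM in controls, 763, 339, 343 and 279.7 at 1500 ppm, 297, 340.0, 302 and 239 at 3000 ppm and 790.2, 731, 563 and 253 at 6000 ppm. It fell by 1.56 on the log2 scale at 3000 ppm, where all 4 animals lay below every control, but its value was -0.85 without 75A (adjusted p = 0.135 from edgeR). The call was also lost without 67C, 71A or 9A (adjusted p of 0.0557, 0.0544 and 0.0767 from edgeR). The groups overlapped at 6000 ppm. Hp, haptoglobin, which binds free hemoglobin, had 1327, 2538, 2784 and 6249 CPM in controls, 3048, 1599.7, 1317 and 1209 at 1500 ppm, 1726, 941, 1746 and 967 at 3000 ppm and 3582, 3307, 2700.0 and 1242 at 6000 ppm. It overlapped the controls and was not called by edgeR at any dose. It was called at 3000 ppm without control 32A (-1.51, adjusted p = 0.0202). Summed neutrophil markers (9 genes in the table, Mpo at 0 in controls) were 8.96 to 16.5 CPM at 6000 ppm, against 8.42 to 16.5 CPM in controls. Control 75A had 16.5 CPM of them and animal 3A 14.7, each the highest of its group, and Lcn2 is also a neutrophil gene. Their part in these values was not tested.

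Fibrinogen and inter-alpha-trypsin inhibitor genes also fell. Fgb, the beta chain, had 4058, 6067, 5326 and 7983 CPM in controls, 2819, 3109.9, 3074 and 2985 at 1500 ppm, 2839, 2473, 3201 and 2279.7 at 3000 ppm and 4594, 4025, 3228 and 2179 at 6000 ppm. All animals at 1500 and 3000 ppm lay below every control, while 29B at 6000 ppm lay within their range. Its changes were -0.97 ± 0.22, -1.12 ± 0.22 and -0.74 ± 0.22 by rising dose, and the chains Fga and Fgg changed by -0.80 and -0.79 at 6000 ppm. At 6000 ppm the Fgb call was lost without 75A (-0.53, adjusted p = 0.139 from edgeR) and also without 45C, 63A, 44A, 64C or 8C. The Fga and Fgg calls there were lost without 75A (-0.65 and -0.60) and without 45C, 63A, 64C or 8C, and that of Fgg also without 44A. All 3 were also lost with the 2 groups fitted alone and with the sequencing run as a term (Fga -1.03, Fgb -0.86 and Fgg -0.98, with edgeR adjusted p of 0.065, 0.114 and 0.0897). Fga had 5819.9, 5143, 4549 and 2644 CPM at 6000 ppm, against 5462, 8994, 7248 and 9878 CPM in controls, and Fgg 4259.7, 3808, 3354 and 1832 at 6000 ppm, against 3967, 6120.4, 5244 and 7589 in controls. Itih4, an inter-alpha-trypsin inhibitor heavy chain with acute phase behaviour, had 1828, 2355, 2404 and 4019 CPM in controls, 1388, 1005, 977 and 947 at 1500 ppm, 872, 577, 891 and 524 at 3000 ppm and 2029, 1574, 1133 and 624 at 6000 ppm. It fell by 1.89 on the log2 scale at 3000 ppm, with every animal below every control, and its call at 6000 ppm (-0.98 ± 0.31) was lost without 75A (-0.69, adjusted p = 0.18 from edgeR) and also without 45C, 63A, 44A, 64C or 8C. That Itih4 call was also lost with the run as a term (adjusted p = 0.117), with the 2 groups alone (0.116), on the deposited raw counts (0.0584), with no filter on low counts (0.0511) and with a filter of 1 CPM (0.0521). Itih1 and Itih2, which link to hyaluronan, were called lower at all 3 doses, at -0.63 and -0.68 at 6000 ppm.

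Among complement genes C9, C8b and C8a, which build the pore, had the largest falls at 6000 ppm. C9, which polymerises into the pore, had 704.3, 814, 958 and 1328 CPM in controls, 426, 381, 369.7 and 348 at 1500 ppm, 379, 374, 327 and 210.3 at 3000 ppm and 534, 309.9, 337 and 134 at 6000 ppm. Every treated animal lay below every control at each dose. The changes were -1.32 ± 0.30, -1.56 ± 0.31 and -1.53 ± 0.31 by rising dose (edgeR adjusted p = 0.00356 at 6000 ppm), and the call at 6000 ppm held without 75A and with the sequencing run as a term. C8b, a chain of C8, had 384, 367, 387 and 550.2 CPM in controls, 224, 221, 221 and 178 at 1500 ppm, 227, 172, 182 and 156 at 3000 ppm and 251, 172, 164 and 97.2 at 6000 ppm, with no overlap at any dose and -1.30 ± 0.22 at 6000 ppm. C8a, its partner chain, had 886, 632, 637 and 320.2 CPM at 6000 ppm, against 1035, 1117, 1240.2 and 1678 in controls (-1.03 ± 0.23). C6 changed by -0.88, C2, a protease of the classical and lectin convertase, by -0.86, and Cfi, which inactivates C3b, by -0.59 at 6000 ppm.

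C3, the central component, and the lectin Mbl1 were not called at 6000 ppm, while the lectin Mbl2 fell. C3 had 5792, 6208, 6221 and 10853 CPM in controls, 6665, 4519, 4722 and 3924 at 1500 ppm, 5982, 3075, 4631 and 3859 at 3000 ppm and 9197, 7294, 5984 and 4714 at 6000 ppm, which overlapped at 6000 ppm (-0.10 ± 0.26, adjusted p = 0.866 from edgeR). EdgeR called C3 at no dose, while DESeq2 called it at 3000 ppm (-0.72, adjusted p = 0.0259), as did edgeR without 35A (-0.90, adjusted p = 0.037). Mbl2, a mannose-binding lectin that starts the lectin pathway, had 187, 156, 162 and 239 CPM in controls, 82.4, 118, 123 and 153 at 1500 ppm, 93.3, 84.1, 104 and 115 at 3000 ppm and 128, 114, 70.8 and 96.5 at 6000 ppm. It fell by 0.86 on the log2 scale at 6000 ppm, where all 4 animals lay below every control. The related Mbl1 stood at -0.12 and was not called.

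Coagulation genes had the smallest median change of the classes at 6000 ppm, and the smallest median within-group spread. F11, factor XI of the contact pathway, had 87.1, 102, 112 and 97.2 CPM in controls, 53.9, 69.9, 47.6 and 60.8 at 1500 ppm, 55.8, 42.7, 48.0 and 42.7 at 3000 ppm and 61.5, 31.2, 56.3 and 29.5 at 6000 ppm, with every treated animal below every control. Its changes were -0.78 ± 0.20, -1.07 ± 0.20 and -1.16 ± 0.21 by rising dose. F7, which starts the extrinsic pathway with tissue factor, had 39.3, 27.8, 23.1 and 25.1 CPM at 6000 ppm, against 45.0, 45.4, 54.9 and 57.9 in controls (-0.82 ± 0.17). Klkb1, plasma prekallikrein, had 179, 114, 172 and 146 CPM at 6000 ppm, against 291, 216, 223 and 219 in controls (-0.64 ± 0.16). F5, the cofactor of factor Xa, had 659, 498, 608 and 517 CPM at 6000 ppm, against 975, 781, 805 and 839 in controls (-0.58 ± 0.11), again without overlap. F2, prothrombin, had 1118, 1022, 1062 and 1061 CPM in controls, 806, 904, 819 and 913 at 1500 ppm, 856, 622, 737 and 769 at 3000 ppm and 865, 815, 750.3 and 809 at 6000 ppm, and fell by 0.40 on the log2 scale at 6000 ppm (adjusted p = 0.0254 from edgeR, 0.355 with the sequencing run as a term, and over 0.05 also without 32A, 63A, 75A, 44A, 64C or 8C). Plg, plasminogen, had 1497, 1058, 1075 and 1041 CPM at 6000 ppm, against 1632, 1539, 1834 and 2036 in controls (-0.59 ± 0.16, lost without 75A at -0.49 and also without 63A, 44A, 64C or 8C). Serpinc1, antithrombin, had 1149.8, 1104, 1022 and 1189.7 CPM at 6000 ppm, against 1493, 1314, 1375 and 1367 in controls, without overlap, and was not called by edgeR (-0.31 ± 0.11, adjusted p = 0.0785) but was by DESeq2 (-0.30, adjusted p = 0.0157). With the sequencing run as a term, 7 of the 28 calls at 6000 ppm were kept (Itih2, C2, C8a, C8b, C9, F11 and Serpind1) and 21 were lost. Among those lost were F7, F5, Klkb1, Plg and Mbl2 (-0.72, -0.51, -0.53, -0.52 and -0.66, with edgeR adjusted p of 0.117, 0.0899, 0.186, 0.151 and 0.0804). The Klkb1 call was also lost without 32A, 44A or 8C.

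**Figure D2:**
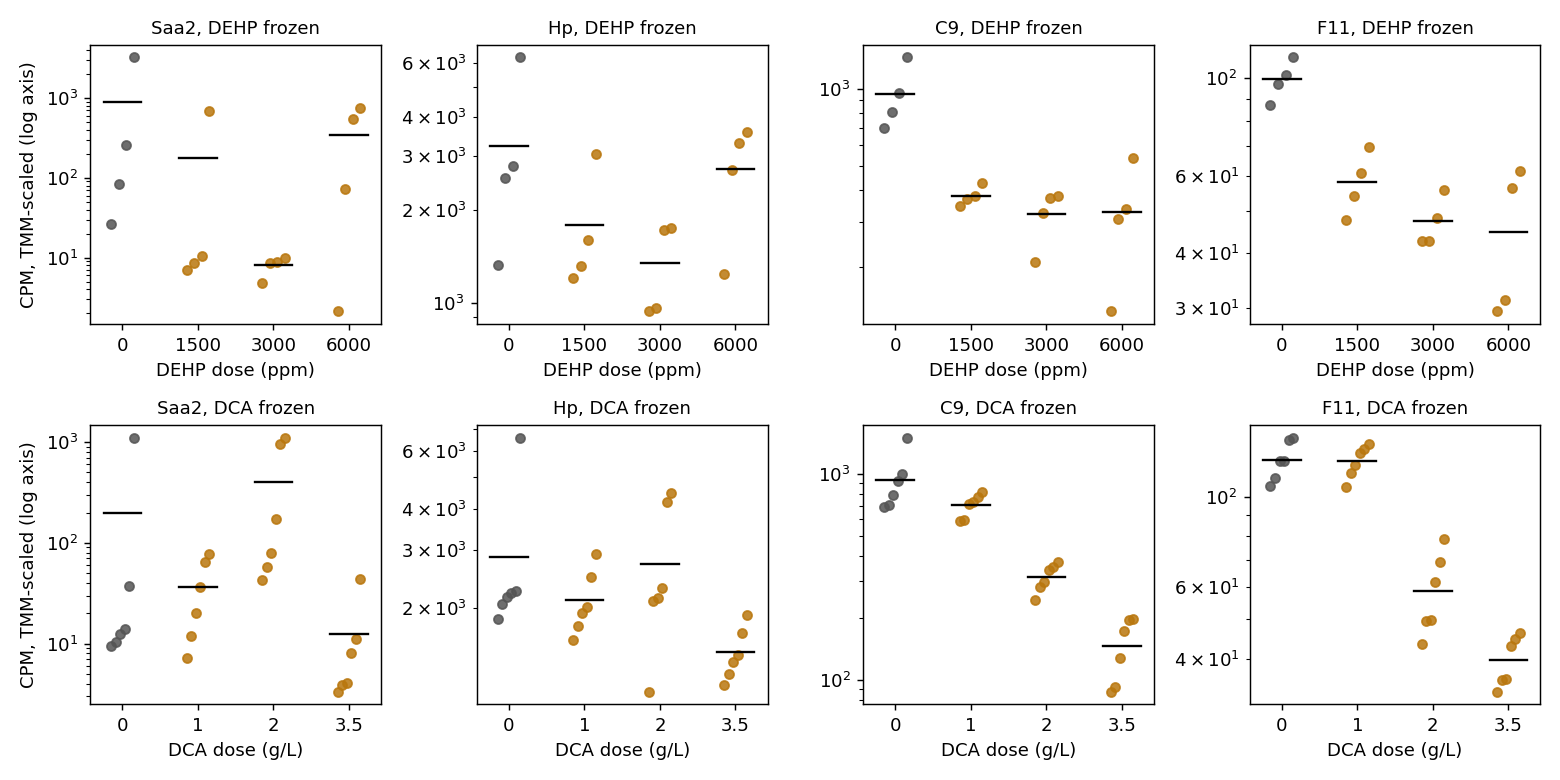
TMM-scaled CPM (log axis) of Saa2, Hp, C9 and F11 in each frozen library by DEHP dose in ppm (n = 4 per dose) and DCA dose in g/L (n = 6 per dose), with controls in grey, treated animals in orange and bars at group means. Saa2 spans 2.13 to 3235 CPM among DEHP animals, and its 1500 and 6000 ppm groups overlap the controls while its 3000 ppm group does not. C9 and F11 of every DEHP animal given a dose lie below every control.

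In frozen liver of DCA animals more members fell at each higher dose, until nearly all were lower. At 1 g/L 24 members were called lower (5 acute phase, 6 complement, 13 coagulation), when 7.01% of 13089 genes tested were, and 0 higher, when 4.11% were. With the sequencing run as a term fewer members were called at this dose. At 2 g/L 38 were called lower (6, 12 and 20), when 13.7% of genes were, and 1 (Orm2) higher, when 15.5% were. At 3.5 g/L 52 were called lower (19, 13 and 20), when 21.1% of genes were, and 0 higher, when 21.9% were. Only Orm2 and Mbl2 were not called there. Comparing 3.5 with 1 g/L directly, 45 were lower (13, 12 and 20), when 10.3% of genes were, and 0 higher, when 14.6% were. The median log2 fold change over all members at 3.5 g/L was -1.03, beside -0.02 over all genes tested. Summed Kupffer cell markers (10 genes) were 159 to 241 CPM at 3.5 g/L, against 298 to 407 CPM in controls, and 8 of the 10 were called lower. Summed hepatocyte markers (8 genes, 5 called lower and 1 higher) were 77900 to 98800 CPM at 3.5 g/L, against 106000 to 130000 CPM in controls. Summed sinusoidal endothelial markers (10 genes, 4 called lower) were 416 to 453 CPM at 3.5 g/L, against 478 to 551 CPM in controls. Summed stellate cell markers (10 genes, 6 called lower) were 500 to 667 CPM at 3.5 g/L, against 623 to 939 CPM in controls. None of these markers was at 0 in a group. Their part in the falls was not tested.

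Serum amyloid genes again depended on single animals. Saa2 had 9.51, 13.3 and 1108 CPM (lowest, median and highest of 6) in the DCA controls, 7.26, 28.3 and 77.2 at 1 g/L, 43.0, 125 and 1101 at 2 g/L and 3.35, 6.06 and 44.0 at 3.5 g/L. Control animal 8 had the highest value of the controls and stood far above the others, and at 2 g/L animals 74 and 75 (1100.9 and 953 CPM) reached a like level while the other 4 had at most 172 CPM. Its change at 3.5 g/L was -3.99 ± 1.21 (edgeR adjusted p = 0.00993), and -0.42 (adjusted p = 0.723) without animal 8. Saa1 had 36.1, 58.8 and 1101 CPM (lowest, median and highest of 6) in the DCA controls, 43.2, 83.7 and 229 at 1 g/L, 82.5, 172 and 1123 at 2 g/L and 6.04, 12.5 and 77.1 at 3.5 g/L, and its change of -3.36 ± 0.91 at 3.5 g/L was -1.43 without animal 8 (adjusted p = 0.102). Lcn2 had 3.09, 6.11 and 213 CPM (lowest, median and highest of 6) in the DCA controls, 1.54, 3.79 and 11.03 at 1 g/L, 6.13, 25.3 and 139.8 at 2 g/L and 0.821, 1.77 and 5.69 at 3.5 g/L, and -3.83 ± 1.06 at 3.5 g/L became -0.92 without animal 8 (adjusted p = 0.349). Orm2 had 18.7, 52.6 and 439 CPM (lowest, median and highest of 6) at 2 g/L, against 7.16, 9.99 and 84.8 CPM in controls (2.72 ± 0.77). Without the shallow libraries 73, 74 and 75 it was not called, since 37 members were then lower and 0 higher at 2 g/L. Summed neutrophil markers were 2.13 to 12.5 CPM at 2 g/L, against 1.70 to 5.45 CPM in controls, with 12.5, 8.5 and 5.51 CPM in animals 74, 75 and 73 at 2 g/L and 5.45 CPM in control 8, the highest control, and Camp was at 0 in all controls. Their part in these values was not tested.

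Orm1, the fibrinogen genes and Itih4 were called lower at 3.5 g/L with or without animal 8, and Hp only with it. Orm1 had 382, 496 and 1049.9 CPM (lowest, median and highest of 6) in the DCA controls, 460.4, 549 and 716 at 1 g/L, 339.5, 449 and 1193 at 2 g/L and 133, 177 and 267 at 3.5 g/L, so that every animal at 3.5 g/L lay below every control. It fell by 1.58 on the log2 scale there, and by 1.33 without animal 8. Hp had 1846, 2193 and 6570.5 CPM (lowest, median and highest of 6) in the DCA controls, 1598, 1972 and 2911 at 1 g/L, 1114, 2224 and 4462 at 2 g/L and 1168, 1405 and 1906 at 3.5 g/L, and its change of -0.96 ± 0.30 was -0.52 without animal 8 (edgeR adjusted p = 0.0794). Fgb had 4250.4, 4691 and 8424 CPM (lowest, median and highest of 6) in the DCA controls, 4969, 5144 and 5564 at 1 g/L, 3399, 4553 and 6286 at 2 g/L and 2469, 3059.7 and 3500.3 at 3.5 g/L, with -0.81 ± 0.15 at 3.5 g/L and no call at 1 or 2 g/L. Fga and Fgg had 3789.8, 4898 and 6056 CPM and 2089, 2715 and 3277 CPM at 3.5 g/L, against 6402, 7037 and 12681 CPM and 3682, 4056 and 7062 CPM in controls (log2 -0.69 and -0.76). Itih4 had 2225, 2546 and 4361 CPM (lowest, median and highest of 6) in the DCA controls, 1545, 1738 and 2002 at 1 g/L, 998, 1354 and 2091 at 2 g/L and 628, 949 and 1309 at 3.5 g/L, below every control in all 18 treated animals, with -1.50 ± 0.19 at 3.5 g/L.

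C9, C8b and C8a had the largest falls of the complement genes under DCA at 3.5 g/L, while C8g (-1.03) and Hc, which encodes C5 (-1.15), fell less than C2 (-1.46). C9 had 687, 857 and 1498 CPM (lowest, median and highest of 6) in the DCA controls, 589.9, 725 and 818 at 1 g/L, 245, 319 and 371 at 2 g/L and 87.6, 150.0 and 196 at 3.5 g/L. All animals at 2 and 3.5 g/L lay below every control, and its changes were -0.41 ± 0.19, -1.57 ± 0.20 and -2.69 ± 0.21 by rising dose (edgeR adjusted p = 3.02e-10 at 3.5 g/L). C8b had 468, 570.2 and 687 CPM (lowest, median and highest of 6) in the DCA controls, 472, 492.6 and 608 at 1 g/L, 193, 233 and 302 at 2 g/L and 135, 152 and 213 at 3.5 g/L (-1.80 ± 0.13 at 3.5 g/L), and C8a 1159, 1217 and 1411 CPM (lowest, median and highest of 6) in the DCA controls, 951, 1009 and 1084 at 1 g/L, 490.5, 626 and 741 at 2 g/L and 349, 445 and 505 at 3.5 g/L (-1.52 ± 0.10). C3 had 8754, 10704 and 13743 CPM (lowest, median and highest of 6) in the DCA controls, 5232, 6185 and 7238 at 1 g/L, 4081, 5877 and 7577 at 2 g/L and 4238, 5329 and 6111 at 3.5 g/L, with every treated animal below every control and -1.04 ± 0.13 at 3.5 g/L. Mbl2 was not called, with 140.5, 152 and 196 CPM (lowest, median and highest of 6) in the DCA controls, 135, 156 and 179 at 1 g/L, 119.5, 133 and 257 at 2 g/L and 148, 169 and 257 at 3.5 g/L and 0.18 ± 0.16 at 3.5 g/L (adjusted p = 0.362). Mbl1 changed by -0.38, and Cfb, the alternative pathway protease, by -1.39 at 3.5 g/L.

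All 20 coagulation genes were called lower at 2 and at 3.5 g/L, with a median of -0.84 at the top dose. F5 had 916, 971 and 1050.2 CPM (lowest, median and highest of 6) in the DCA controls, 508, 531 and 566 at 1 g/L, 339, 367 and 414 at 2 g/L and 328, 384 and 456 at 3.5 g/L, below every control in all treated animals already at 1 g/L (-0.87 ± 0.07). Its changes at 2 and 3.5 g/L were -1.39 ± 0.07 and -1.33 ± 0.07 (edgeR adjusted p = 7.78e-13 at 3.5 g/L). F2 had 1438, 1449 and 1493 CPM (lowest, median and highest of 6) in the DCA controls, 891, 962 and 1069 at 1 g/L, 598, 688 and 836 at 2 g/L and 559, 638 and 698 at 3.5 g/L, likewise without overlap, and -1.21 ± 0.08 at 3.5 g/L. F11 was called at 2 and 3.5 g/L only, with 106, 122 and 139.6 CPM (lowest, median and highest of 6) in the DCA controls, 106, 124 and 135 at 1 g/L, 43.5, 55.7 and 78.6 at 2 g/L and 33.2, 39.2 and 46.3 at 3.5 g/L and changes of -0.01 ± 0.11, -1.04 ± 0.12 and -1.63 ± 0.12. Plg had 2244, 2317 and 2449.6 CPM (lowest, median and highest of 6) in the DCA controls, 1695, 1834 and 1907 at 1 g/L, 1309, 1434 and 1659 at 2 g/L and 1180.1, 1344 and 1479.8 at 3.5 g/L (-0.79 ± 0.07), and Serpinc1 1658, 1779 and 1846 CPM (lowest, median and highest of 6) in the DCA controls, 1436, 1457 and 1567 at 1 g/L, 1127, 1246 and 1395 at 2 g/L and 1154, 1221 and 1317 at 3.5 g/L (-0.52 ± 0.06). F7 and Klkb1 had 31.6, 39.1 and 43.3 CPM and 179.9, 191 and 203 CPM at 3.5 g/L, against 68.0, 71.3 and 76.1 CPM and 234, 265 and 286 CPM in controls (log2 -0.91 and -0.47). The smallest fall was that of F13b, a factor XIII subunit, at -0.28.

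Set side by side at the top doses, 27 members were called lower in both frozen sets (27 of the 28 called under DEHP and of the 52 called under DCA), when 2.9% of 12390 genes tested in both were. Of all such genes called lower under DEHP, 57.9% were also called lower under DCA. With 52 of the 54 members lower under DCA, an overlap of this size follows from the separate counts. The changes differed for 14 by a test of the difference itself, in 1 fit with each chemical against its own controls. The DEHP change minus the DCA change was above 0 for 13 members (1 acute phase, 6 complement, 6 coagulation), when 6.48% of 13219 genes tested were called above 0, and below 0 for 1, when 6.85% were. F2 changed by -0.40 under DEHP and -1.21 under DCA, a difference of 0.83 ± 0.12 (edgeR adjusted p = 1.89e-05). F5 changed by -0.58 under DEHP and -1.33 under DCA (0.77 ± 0.12), and Cfb by -0.37 and -1.39 in the same order (1.04 ± 0.18). C3, at -0.10 under DEHP and -1.04 under DCA, differed by 0.96 ± 0.27, and C9 by 1.17 ± 0.36. Mbl2 alone differed the other way, lower under DEHP (-0.86) than under DCA (0.18), by -1.02 ± 0.26 (adjusted p = 0.00781). The doses, routes, exposures and years differ between the chemicals, and 8 of 10 Kupffer cell markers also differed, with C1qa at 1.33 ± 0.28. Their sums were 244 to 375 CPM at DEHP 6000 ppm, against 186 to 305 CPM in the DEHP controls, and their part was not tested. Without control 75A 22 members differed. Saa1, Saa2 and Lcn2 had the widest differences (2.01 ± 1.62, 2.64 ± 1.97 and 2.60 ± 1.67) and were not called.

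**Figure D3:**
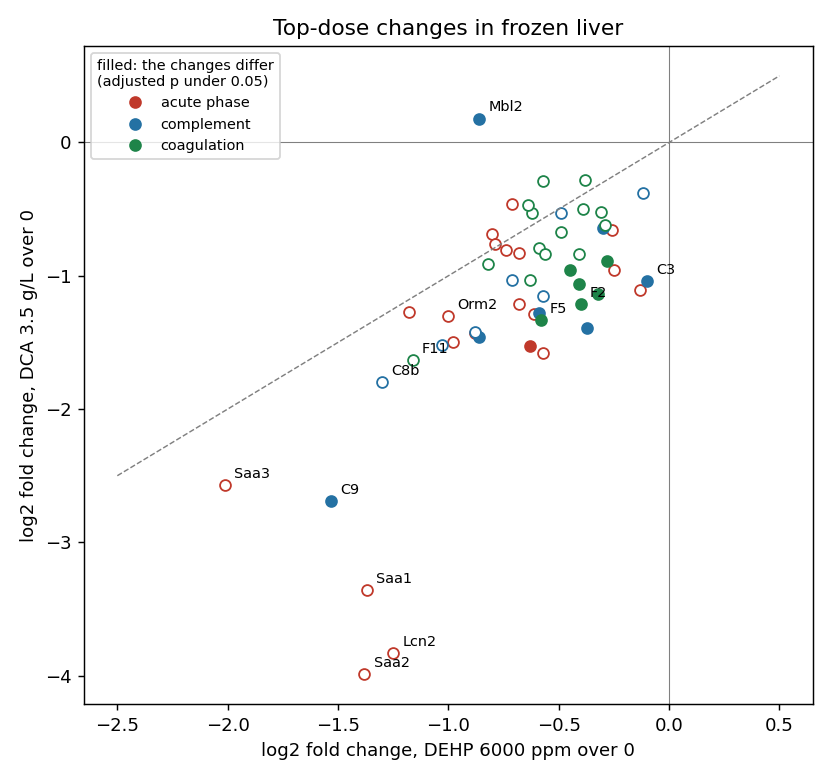
Log2 fold change of each member in frozen liver at DEHP 6000 ppm (horizontal) and DCA 3.5 g/L (vertical), each over its own controls, by class, with filled points where the changes differ at an adjusted p under 0.05 and a dashed line of equal change. 46 of the 54 members lie below the line, and Mbl2 lies at -0.86 and 0.18.

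Genes that act on or beside the members were counted from fixed lists, beside 4.72% of all genes tested called lower and 7.05% called higher at DEHP 6000 ppm, and 21.1% lower and 21.9% higher at DCA 3.5 g/L. Of 20 tested genes of interleukin 6, interleukin 1 and TNF signalling, 3 were lower and 0 higher at DEHP 6000 ppm and 7 were lower and 1 higher at DCA 3.5 g/L in frozen liver. Il1r1, the interleukin 1 receptor, fell by 1.61 on the log2 scale under DEHP and by 1.66 under DCA, its accessory protein Il1rap by 0.93 and by 1.14, and Il6ra, the interleukin 6 receptor, by 1.91 under DCA. Lifr, a receptor of the same cytokine family, fell by 1.24 under DEHP at 6000 ppm, and Stat3 by 1.10 at 3000 ppm. Of liver transcription factors 1 of 18 tested rose under DEHP, Creb3l3 at 0.65 ± 0.15, and under DCA 4 of 17 rose and 7 fell, with Nr1h4 (the bile acid receptor) at 0.89 ± 0.10 and Cebpd at -1.19 ± 0.27. Other plasma protein genes of the same systems fell in 11 of 32 tested genes under DEHP and in 25 of 32 under DCA, where 2 rose. Mug1, a murinoglobulin protease inhibitor, fell by 1.14 under DEHP and by 1.65 under DCA, and C4b, a C4 gene, by 2.21 under DCA. All 10 PPAR alpha target genes rose under DEHP at 6000 ppm and 9 of 10 under DCA at 3.5 g/L, Ehhadh by 5.77 ± 0.51 and 5.24 ± 0.36. Plasma proteins known to fall in the acute phase went both ways, with 1 of 8 higher and 2 lower under DEHP and 3 of 8 higher and 3 lower under DCA.

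In FFPE liver of the DEHP animals members were called lower at every dose and none was called higher. At 1500 ppm 15 were called lower, when 1.31% of 13581 genes tested were, and 0 higher, when 4.55% were. At 3000 ppm 33 were called lower, when 3.24% were, and 0 higher, when 6.15% were. At 6000 ppm 18 were called lower (3 acute phase, 9 complement, 6 coagulation), when 4.43% were, and 0 higher, when 7.94% were. All 33 at 3000 ppm, 17 of 18 at 6000 ppm and 14 of 15 at 1500 ppm were also called lower in frozen liver of the same animals at that dose, as were 81.8%, 61.2% and 71.2% of all genes called lower in FFPE at these doses. C9 had 366, 214, 258 and 112 CPM at 6000 ppm in FFPE, against 502.5, 511, 610.0 and 943 CPM in FFPE controls, without overlap (-1.43 ± 0.28). F11 had 38.4, 24.1, 44.2 and 24.7 CPM at 6000 ppm in FFPE, against 68.2, 72.2, 77.5 and 58.2 CPM in FFPE controls (-1.07 ± 0.19). The effect of 6000 ppm in FFPE minus that in frozen liver was tested with the animal as a paired block. EdgeR called 0 members above or below 0, when 0% of 14065 genes were called in either direction, and DESeq2 called 0. At an unadjusted p under 0.05 from edgeR were 4 members, all above 0, and 254 of all 14065 genes. Without control 75A 17 members were lower at 3000 ppm and 4 at 1500 ppm, without 9A 19 at 3000 ppm, without 40A, 60A and 72B 8, 3 and 5 at 1500 ppm, and without 63A, 44A and 64C 11, 9 and 11 at 6000 ppm.

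Acute phase genes ordered the animals alike in FFPE and frozen liver, and coagulation genes less so. Saa2 had 24.1, 237, 54.4 and 2358 CPM in FFPE controls, 556, 7.43, 6.23 and 5.75 at 1500 ppm, 5.04, 5.99, 8.42 and 1.40 at 3000 ppm and 606, 513, 81.4 and 2.89 at 6000 ppm. Animals 75A and 3A again stood far above their groups, and 8C was the lowest at 6000 ppm. Each animal's deviation from the mean log2 CPM of its dose was correlated between preparations over the 16 DEHP animals, for 54 members. For Saa2 Pearson's r was 0.99 and Spearman's rho 1.00, each with a permutation p of 1e-05, the smallest that 100000 reassignments of animals within a dose can give, and r was 0.99 without the 2 animals farthest from the median. For Hp r was 0.94 and rho 0.94 (permutation p = 0.00011 and 8e-05), with r = 0.91 without the 2 farthest animals. For C9 r was 0.93 and rho 0.82 (permutation p = 0.00074 and 0.00108), with r = 0.81 without the 2 farthest animals. For F2 r was 0.02 and rho -0.04 (permutation p = 0.952 and 0.911), with r = 0.20 without the 2 farthest. Without animals 35A and 67C r was 0.99, 0.97, 0.97 and 0.20 for Saa2, Hp, C9 and F2. The median r was 0.94 over acute phase genes, 0.85 over complement genes and 0.53 over coagulation genes, beside 0.35 over 13445 genes tested in both preparations. An r over 0.8 was found for 17 of 20, 8 of 14 and 2 of 20 members of these classes, and for 11% of all those genes. The classes also differed in spread, with median within-group SDs of 0.55, 0.26 and 0.18 in frozen liver, beside 0.24 over all genes tested. Saa2 stood at 2.86 and F2 at 0.12. The part of this spread in r was not tested, so r does not rank how well FFPE keeps a class. Runs held too few animals of a dose for values within a run, and p-values of these relations are not adjusted.

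**Figure D4:**
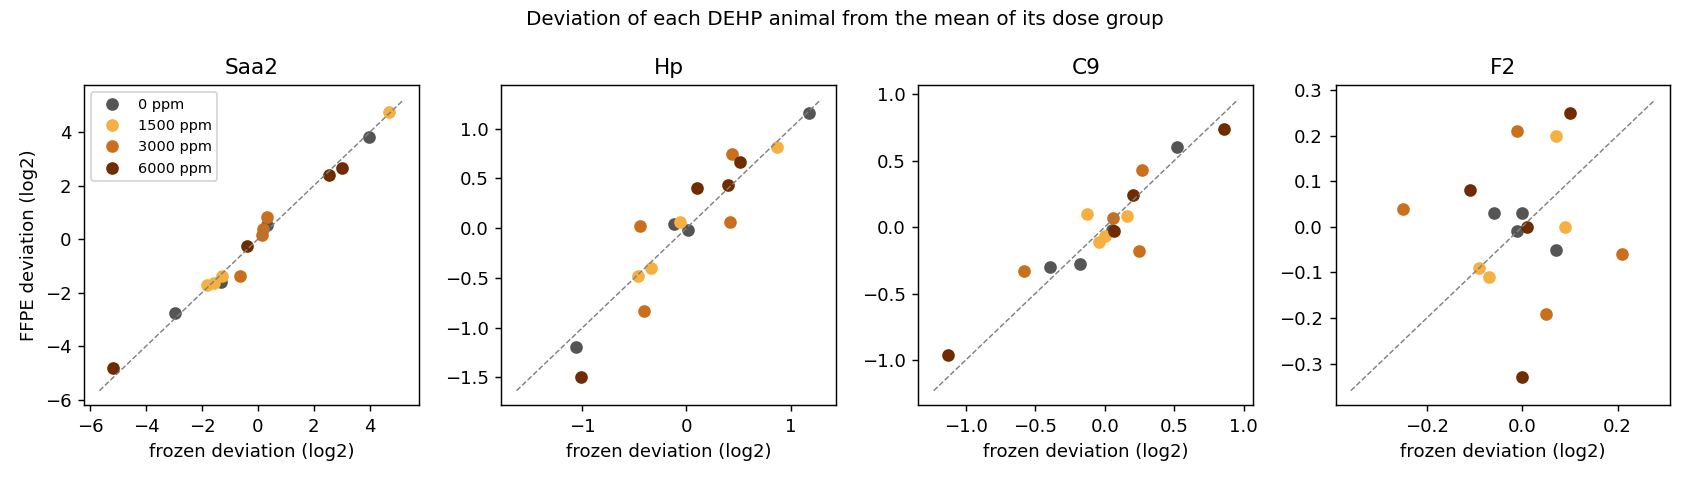
Deviation of each of 16 DEHP animals from its dose mean (log2 CPM) in frozen (horizontal) and FFPE liver (vertical) for Saa2, Hp, C9 and F2, colored by dose in ppm, with a dashed line of equality. Saa2 points follow the line (r = 0.99), while F2 points show no such order (r = 0.02).

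Members had lower CPM in FFPE than in frozen libraries of the same animals. The FFPE blocks were of specific lobes and the frozen pieces of mixed lobes, which cannot be told apart from the preparation. With the animal as a block, 47 members were called lower in FFPE of DEHP animals (16 acute phase, 13 complement, 18 coagulation), when 34.6% of 13163 genes tested were, and 1 higher (Saa4, 0.18), when 32.5% were. Without the block 38 were called, and without animals 35A and 67C 45 were lower and 1 higher. Fibrinogen chains and kininogen fell furthest, with Fgg at -1.02 ± 0.04, Fgb at -0.95 ± 0.04 and Kng1 at -0.95 ± 0.04, while Saa1 (-0.06 ± 0.06), Lbp, Masp1, Plg, Lcn2 and Hrg were not called. In DCA animals 47 members were called lower in FFPE, when 59.1% of 10361 genes tested were, and 0 higher, when 0.415% were. With DESeq2's size factors in edgeR 25 members were called there (25 lower and 0 higher). Their median log2 fold change there was -1.66, beside -1.46 over all genes tested, so that this scaling put most genes lower, and relative to it Fgb (-2.35 ± 0.26) lay below it and C8a (-0.80 ± 0.29) was above it. No dose effect on a member passed the main test in FFPE liver of DCA animals. There edgeR and DESeq2 each called 0 of 53 tested members at 1, 2 and 3.5 g/L. At an unadjusted p under 0.05 from edgeR were 3, 11 and 27 members (3, 10 and 27 of them lower). Of all 4772 genes, 64, 226 and 368 were at that unadjusted threshold, in either direction. The shares of all 4772 genes called lower were 0.021%, 0.0838% and 0.0838%, and those called higher 0.105%, 0.251% and 0.21%. On counts simulated at these depths and spreads, 0% of 2-fold and of 4-fold changes in randomly drawn genes were recovered. Falls over 4-fold were not simulated, nor were the members apart from other genes. The within-group SD of log2 CPM had a median of 2.49 over members and 2.58 over all genes tested, but was 0.62 for C3. The simulation therefore does not tell whether the members' falls seen in frozen liver were detectable there.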

How the data were processed

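RNA-seq of 80 mouse liver libraries was used, 1 frozen and 1 FFPE library from each of 40 animals, in 16 groups of 4 or 6. Libraries were stranded total RNA depleted of ribosomal RNA, per the labels' protocols. CASAVA, STAR 2.4, RSEM and mm10 are named in the submitters' processing notes. The authors deposited RSEM expected counts per gene (estimated counts, rounded here to whole numbers) and FPKM values. FPKM served only to compare levels between genes. Depth ranged from 109292 to 29550616 counts per library.

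The members and lists were chosen with earlier results of these data known. Counts were tested with edgeR 4.0.16 (R 4.3.3; quasi-likelihood test, TMM scaling, filterByExpr with a minimum count of 10), with all dose groups of 1 chemical and preparation in 1 fit and Benjamini-Hochberg adjustment over all genes tested. A call is an adjusted p under 0.05, and SE is the size of the log2 fold change over the square root of F. CPM are TMM-scaled within each set of libraries. Replicates are animals by their numbers in the labels, and p-values measure the spread between them. FFPE and frozen libraries were compared with the animal as a block, since the labels give 1 animal number to both. As a check, 14 of 16 DEHP animals correlated best with their own partner (median r 0.567; 35A and 67C did not), and 13 of 24 DCA animals did (median r 0.04). Full values are given for a fixed set of 12 members, for the 3 members of each class and chemical with the largest called change at the top dose in frozen liver (mean log2 CPM of at least 2), and for members whose effects of the chemicals differ with opposite signs; genes of other lists are named by smallest p, up to 3 a list. On simulated counts the same test recovered 64% of 2-fold and 95% of 4-fold changes in DEHP frozen, 60.2% and 88.8% in DEHP FFPE, 81.8% and 97% in DCA frozen and 0% and 0% in DCA FFPE. Alternatives were DESeq2 1.42.0 and its size factors, other filters and thresholds, the deposited raw counts, the 2 compared groups alone, the sequencing run as a term and each library left out. Promoter windows came from RefSeq on GRCm38.p6, and protein sequences were not used here.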

Additional observations from a re-analysis of the deposited data

Results flagged for a closer look

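Single animals stood apart from their groups in 39 of 252 groups of named members. The measure was the gap to the nearest other animal over the group range, on CPM without logs. Its cutoff flags about 1 in 20 groups of normally distributed values. CPM of widely varying genes are skewed, so that rate does not hold here and the 39 groups are a description only. Genes of 1 animal are also not independent. Animal 75A (DEHP frozen liver, 0 ppm) stood apart with Saa1 at 3362, Saa2 at 3235, Lcn2 at 427, C3 at 10853 and C8b at 550.0 CPM. Animal 3A (DEHP frozen liver, 1500 ppm) stood apart with Saa1 at 754, Saa2 at 681, Orm1 at 763, Itih4 at 1388 and Lcn2 at 43.4 CPM. Animal 72B (DEHP frozen liver, 1500 ppm) stood apart with C8b at 178 CPM. Animal 40A (DEHP frozen liver, 1500 ppm) stood apart with F7 at 24.3 CPM. Animal 29B (DEHP frozen liver, 6000 ppm) stood apart with Plg at 1497 CPM. Animal 32A (DEHP frozen liver, 0 ppm) stood apart with Klkb1 at 291 CPM. Animal 75A (DEHP FFPE liver, 0 ppm) stood apart with Saa1 at 2926, Saa2 at 2358 and Lcn2 at 263 CPM. Animal 3A (DEHP FFPE liver, 1500 ppm) stood apart with Saa1 at 689, Saa2 at 556, Orm1 at 437 and Lcn2 at 25.5 CPM. Animal 9A (DEHP FFPE liver, 3000 ppm) stood apart with Orm1 at 119 CPM. Animal 8C (DEHP FFPE liver, 6000 ppm) stood apart with Fgg at 1019 CPM. Animal 8 (DCA frozen liver, 0 g/L) stood apart with Saa1 at 1101, Saa2 at 1108, Orm1 at 1050.0, Hp at 6570.0, Fga at 12681, Fgb at 8424, Fgg at 7062, Itih4 at 4361, Lcn2 at 213 and C8a at 1411 CPM. Animal 101 (DCA frozen liver, 3.5 g/L) stood apart with Saa1 at 77.1 and Saa2 at 44.0 CPM. Animal 6 (DCA frozen liver, 0 g/L) stood apart with Mbl2 at 196 and F2 at 1493 CPM. Animal 78 (DCA frozen liver, 2 g/L) stood apart with Mbl2 at 257 CPM. Animal 76 (DCA frozen liver, 2 g/L) stood apart with Klkb1 at 219 CPM.

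The change at DEHP 6000 ppm minus that at DCA 3.5 g/L differed from 0 on the log2 scale, by edgeR with an adjusted p under 0.05, for Itih1 (0.92), C2 (0.62), C3 (0.96), C9 (1.17), Cfb (1.04), Cfi (0.71), Masp2 (0.35), F2 (0.83), F5 (0.77), F12 (0.84), Proc (0.67), Pros1 (0.62) and Serping1 (0.53), and the other way for Mbl2 (-1.02).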

How the results depend on the processing

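Called members under other settings were as follows. With an adjusted p under 0.01, calls at DEHP 1500, 3000 and 6000 ppm numbered 2, 28 and 15 in frozen and 0, 14 and 5 in FFPE liver, 14 at DCA 1 g/L in frozen liver and 9 for DEHP minus DCA. With the sequencing run as a term they numbered 5, 22 and 7 at DEHP 1500, 3000 and 6000 ppm in frozen liver and 0 at 1500 ppm in FFPE. That term gave 13 at DCA 1 g/L in frozen liver, where libraries 53 and 54 came from another run. The deposited raw counts gave 13 at 1500 ppm in frozen liver. Fitting the 2 compared groups alone gave 14 at 6000 ppm in frozen and 5 in FFPE liver, and 1 each at DCA 1 and 2 g/L in FFPE. DESeq2 size factors gave 1 at DCA 2 g/L in FFPE and 25 for FFPE against frozen in DCA animals. The causes were not tested.

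Leaving out 1 library gave 6 to 24 calls at DEHP 1500 ppm, 33 to 43 at 3000 ppm and 17 to 33 at 6000 ppm in frozen liver, 3 to 20, 17 to 36 and 9 to 23 at these doses in FFPE, and 11 to 22 for DEHP minus DCA. Without the replicate block, FFPE against frozen gave 38 calls in DEHP animals (48 with it) and 45 in DCA animals (47 with it). A number in the titles of treated DEHP frozen libraries did not pair the animals (same-number correlations of -0.05 to 0.13), and a replicate block by that number gave 0 calls for 6000 against 1500 ppm, as without it. The counts at DCA 2 and 3.5 g/L in frozen liver (39 and 52) stayed within 1.5 times under every alternative run, and no call reversed. Frozen DCA controls and libraries at these doses came from the same run, so the run term was no check on them. No alternative had the lane as a term, and its part was not tested. Chosen after seeing the data were the fits without animals 73, 74 and 75, without 35A and 67C, without the Rn45s row (47 calls for FFPE against frozen in each chemical's animals) and within 1 run for DCA 1 g/L in FFPE (0 calls). The raw count table of DCA FFPE was not used. Members had a median of 6805 counts per library in DCA FFPE.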
